A study of Mus musculus with 35 samples.

Results

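The genes of mitochondrial ribosomal proteins were described in RNA-seq data of hematopoietic stem/progenitor cells (HSPCs). They were taken by name, as every gene called Mrpl or Mrps followed by a number and, where present, a letter. This gave 76 of the 11982 gene names in the deposited table. The study asked what the histone demethylase JMJD1B does for gene expression in HSPCs. Bone marrow HSPCs of WT mice and of JMJD1B-/- mice, which carry a gene-trap knockout, were compared, all of strain 129P2xC57BL/6J. Polyadenylated RNA was sequenced in 2 libraries per genotype, which the study design calls biological replicates. Animals of both sexes were included, at ages between 20 and 40 weeks. The age, sex and number of animals of each library are not given in the sources used here, and p-values measure only the spread between these 4 libraries.

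Mitochondria translate a small set of proteins from their own genome, nearly all of them core subunits of oxidative phosphorylation, on ribosomes that differ from those of the cytosol. The proteins of these ribosomes are encoded in the nucleus, made in the cytosol and imported. Some descend from bacterial ribosomal proteins and others are found only in mitochondria. In blood formation, red cell precursors depend on mitochondria for heme synthesis, and resting stem cells rely on them less than dividing progenitors do.

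By role, 49 of the 76 genes encode proteins of the large subunit and 26 encode proteins of the small subunit. In the large subunit, 30 have a bacterial counterpart and 19 are specific to mitochondria, and in the small subunit the numbers are 16 and 10. The remaining gene, Mrps36, is a ribosomal protein in name only, because its product links components of the oxoglutarate dehydrogenase complex. Mrps30 and Mrps18a are counted in the large subunit, where their proteins sit despite the letter s. The name Mrp63, for a large-subunit protein, was the only other name that starts with Mrp, and it falls outside the naming rule.

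Expression is given in RPKM, the reads of a gene divided by its length and by the depth of the library, so that levels can be compared between genes. Where a gene has a pair of values for a genotype, the value of replicate 1 comes first. The depth, estimated from whole-number ratios among genes with few reads, was 17500000 reads in WT replicate 1 and 24600000 reads in WT replicate 2. It was 6100000 reads in JMJD1B-/- replicate 1 and 21000000 reads in JMJD1B-/- replicate 2. At the median gene of the 76, a transcript of 1 kb then has about 254 and 363 reads in the WT libraries and 94.6 and 456 reads in the JMJD1B-/- libraries. Counting error alone is 10.3% for such a gene in JMJD1B-/- replicate 1 and at most 6.27% in the other libraries. JMJD1B-/- replicate 1 is the shallowest library.

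Kdm3b, the gene of JMJD1B, had 31.0 and 24.3 RPKM in WT HSPCs against 4.00 and 4.63 RPKM in JMJD1B-/- HSPCs. The genotypes were separated by far more than their replicates, with a log2 fold change of −2.65 (SE 0.24, adjusted p = 0.0314 in limma).

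All 76 genes were expressed in all 4 libraries, and all 76 passed the filter on low values. Their median was 14.5 and 14.8 RPKM in WT HSPCs against 15.5 and 21.7 RPKM in JMJD1B-/- HSPCs. The median over all listed genes was 10.4 and 10.2 RPKM in WT HSPCs against 9.32 and 10.5 RPKM in JMJD1B-/- HSPCs. Between 52 and 60 of the 76 genes lay within 2-fold of their library's median. The highest gene exceeded the lowest by between 20.2-fold and 24.4-fold. All 76 together made up 0.346% and 0.372% of the summed RPKM in the WT libraries and 0.361% and 0.431% in the JMJD1B-/- libraries.

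The order of the levels was shared among the libraries. Across the 76 genes, Spearman's rho between libraries lay between 0.849 for WT replicate 1 with JMJD1B-/- replicate 1 and 0.941 for WT replicate 2 with JMJD1B-/- replicate 2. These values describe genes, which are not independent replicates. Mrpl52, specific to mitochondria, was the most abundant by its mean, with 67.7 and 83.5 RPKM in WT HSPCs against 72.5 and 111 RPKM in JMJD1B-/- HSPCs. Mrpl18, whose protein has a bacterial counterpart, followed with 59.1 and 73.4 RPKM in WT HSPCs against 78.9 and 66.4 RPKM in JMJD1B-/- HSPCs. The ranges of the genotypes overlapped for both genes. Mrps21 had the highest level among small-subunit genes, with 52.2 and 49.6 RPKM in WT HSPCs against 64.5 and 64.0 RPKM in JMJD1B-/- HSPCs. The genotypes did not overlap for Mrps21, but its log2 fold change of 0.34 (SE 0.17) missed the threshold at an unadjusted p of 0.0839 in limma.

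At the other end, Mrpl17 had 3.34 and 3.51 RPKM in WT HSPCs against 5.17 and 4.54 RPKM in JMJD1B-/- HSPCs. Mrps25 had 5.02 and 5.63 RPKM in WT HSPCs against 3.82 and 7.23 RPKM in JMJD1B-/- HSPCs. For Mrps25, JMJD1B-/- replicate 1 was the lowest library and JMJD1B-/- replicate 2 the highest, and its log2 fold change of −0.02 turned to 0.093 with quantile normalization. Mrpl41 and Mrpl11 were the remaining genes among the 4 lowest by the mean of all 4 libraries, which was 5.80 and 5.92 RPKM. Ribosomal proteins are built into the particle in equal numbers, apart from the stalk protein of Mrpl12, whereas these mRNA levels spread over a wide range in each library.

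Between the genotypes, the 76 genes were higher in JMJD1B-/- HSPCs as a group, by a small amount. The log2 fold change, taken on log2(RPKM + 0.1), was above 0 for 63 of the 76 genes (82.9%), against 47.0% of the 11863 genes tested. Its median was 0.27, against −0.02 over all genes tested, and its quartiles were 0.04 and 0.46. At an unadjusted p under 0.05 in limma, 11 of the 76 (14.5%) were higher in JMJD1B-/- HSPCs and 0 were lower. Among all genes tested, 452 (3.81%) were higher and 751 (6.33%) were lower at that threshold. With quantile normalization, these counts over all genes were 666 higher and 714 lower, and of the 76 genes 15 were higher and 1, Mrpl24, was lower. After Benjamini-Hochberg adjustment over all genes tested, 0 of the 76 passed 0.05 in limma, and the lowest adjusted p was 0.273, while 5 genes (0.0421%) passed in the whole table. In the gene-by-gene test, 8 of the 76 were higher and 0 were lower before adjustment, beside 2.93% and 4.32% of all genes tested, and 0 passed after it. The values of the genotypes did not overlap, with JMJD1B-/- higher, for 36 of the 76 genes (47.4%), against 20.1% of all genes tested. They did not overlap, with JMJD1B-/- lower, for 2 of the 76, Mrpl24 and Mrpl33, against 22.7% of all genes tested. With 2 libraries per genotype, the smallest two-sided p of an exact permutation test is 0.333, and that test was not run.

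The rise was carried mainly by JMJD1B-/- replicate 2. Against the mean of the WT libraries, the median log2 difference of the 76 genes was 0.49 in JMJD1B-/- replicate 2, where 73 genes were higher. In JMJD1B-/- replicate 1 it was 0.11, and 41 genes were higher. Over all genes tested the medians were 0.09 and −0.10. JMJD1B-/- replicate 2 was the highest of the 4 libraries for 60 of the 76 genes and the lowest for 0, and over all genes tested it was the highest for 39.3% and the lowest for 20.3%. JMJD1B-/- replicate 1 was the highest for 9 genes and the lowest for 29, and over all genes tested for 16.6% and 39.2%. The median difference between the JMJD1B-/- libraries was 0.43 for the 76 genes and 0.18 for all genes tested, and between the WT libraries it was 0.07 and 0.01. Without JMJD1B-/- replicate 1, 34 of the 76 genes were higher at an unadjusted p under 0.05 and 0 were lower, beside 10.6% and 11.0% of all genes tested. Without JMJD1B-/- replicate 2, 8 were higher and 7 were lower, beside 6.13% and 15.3%, and the median of the 76 fell to 0.11. Without WT replicate 1, 3 genes were higher, beside 1.04% of all genes, and without WT replicate 2, 4 were, beside 2.11%. In bulk RNA, a change in the mix of cells and a change in RNA per cell cannot be told apart.

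**Figure D1:**
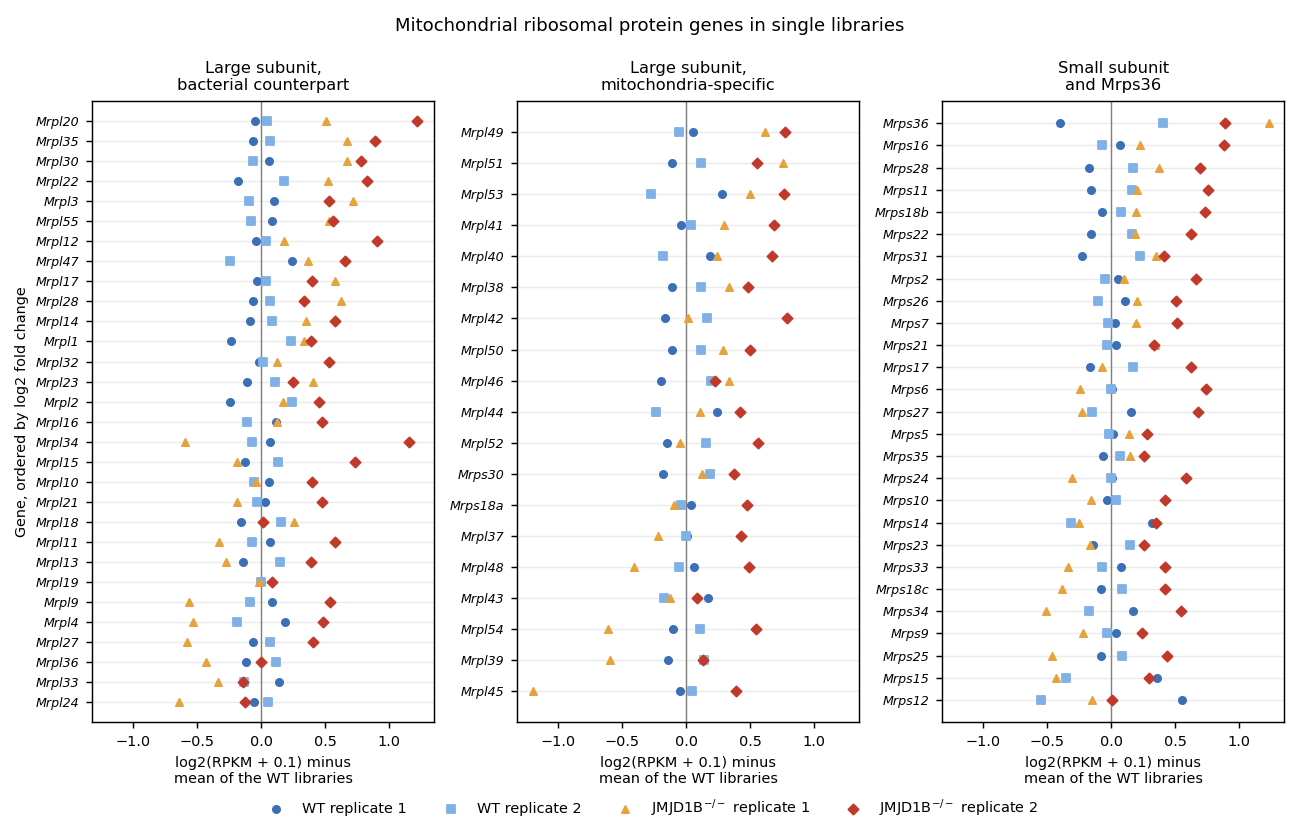
Each row is a gene of a mitochondrial ribosomal protein (Mrps36 included), and each point is its log2(RPKM + 0.1) in a single library minus the mean of the 2 WT libraries, with genes ordered by log2 fold change in panels for the large subunit with a bacterial counterpart (30 genes), the large subunit specific to mitochondria (19 genes) and the small subunit with Mrps36. JMJD1B-/- replicate 2 is the highest library for 60 of the 76 genes, while JMJD1B-/- replicate 1 lies to either side of the WT libraries.

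For the 49 large-subunit genes the median log2 fold change was 0.28, 39 were above 0 and 9 were higher at an unadjusted p under 0.05. For the 26 small-subunit genes the median was 0.22, 23 were above 0 and 1 was higher at that threshold. These are 18.4% of the large-subunit and 3.85% of the small-subunit genes, beside 3.81% of all genes tested. The difference between the subunits was not tested. In single libraries the small subunit was the more uneven, with a median of −0.11 in JMJD1B-/- replicate 1 and 0.47 in JMJD1B-/- replicate 2, against 0.12 and 0.49 for the large subunit. The 46 genes with a bacterial counterpart showed a median of 0.28, and the 29 genes specific to mitochondria had a median of 0.25.

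Of the 11 genes past the unadjusted threshold, 6 encode large-subunit proteins with a bacterial counterpart. Mrpl30 had the lowest p, with 24.5 and 22.5 RPKM in WT HSPCs against 37.5 and 40.3 RPKM in JMJD1B-/- HSPCs. The genotypes were well apart and the replicates close, and the log2 fold change was 0.73 (SE 0.18, 95% confidence interval 0.30 to 1.15, adjusted p = 0.273 in limma). Mrpl20, whose bacterial counterpart acts early in the assembly of the large subunit, had 21.1 and 22.5 RPKM in WT HSPCs against 31.0 and 50.9 RPKM in JMJD1B-/- HSPCs. The JMJD1B-/- libraries differed more from each other than the WT libraries did, and the log2 fold change was 0.86 (SE 0.26, adjusted p = 0.363 in limma). Mrpl3 had 26.1 and 22.8 RPKM in WT HSPCs against 40.1 and 35.2 RPKM in JMJD1B-/- HSPCs. Here the higher JMJD1B-/- library was replicate 1, and the log2 fold change was 0.62 (SE 0.19, adjusted p = 0.374 in limma).

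Mrpl35, a gene of low expression, had 5.08 and 5.59 RPKM in WT HSPCs against 8.53 and 9.94 RPKM in JMJD1B-/- HSPCs. Mrpl22, whose protein lines the tunnel through which the new chain leaves, had 9.99 and 12.9 RPKM in WT HSPCs against 16.4 and 20.2 RPKM in JMJD1B-/- HSPCs. Mrpl28 had 23.6 and 25.9 RPKM in WT HSPCs against 38.2 and 31.2 RPKM in JMJD1B-/- HSPCs. All 3 genes were separated between the genotypes, with log2 fold changes of 0.78, 0.68 and 0.48 and standard errors of 0.26, 0.24 and 0.20.

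Another 3 of the 11 genes encode large-subunit proteins found only in mitochondria. Mrpl49 had 13.2 and 12.2 RPKM in WT HSPCs against 19.4 and 21.7 RPKM in JMJD1B-/- HSPCs. Mrpl51 had 14.4 and 16.8 RPKM in WT HSPCs against 26.3 and 22.8 RPKM in JMJD1B-/- HSPCs. Mrpl53 had 13.8 and 9.32 RPKM in WT HSPCs against 16.0 and 19.3 RPKM in JMJD1B-/- HSPCs. The gap between the genotypes was wide for Mrpl49 and Mrpl51 and narrow for Mrpl53, whose WT libraries differed. The log2 fold changes were 0.70, 0.65 and 0.63, with adjusted p-values of 0.349, 0.389 and 0.483 in limma. In RefSeq, Mrpl49 overlaps Syvn1 and Mrpl53 overlaps Ccdc142, and the library kit does not mark strand, so reads from the overlaps cannot be assigned to a gene with certainty. The same limit holds for all 24 of the 76 genes that overlap another RefSeq gene, among them Mrpl18 (Tcp1), Mrps25 (Nr2c2), Mrpl44 (Wdfy1), Mrps18a (Rsph9) and Mrps18b (Gm16279).

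Mrps28 was the only small-subunit gene past the threshold, with 14.5 and 18.4 RPKM in WT HSPCs against 21.2 and 26.5 RPKM in JMJD1B-/- HSPCs. In RefSeq, Mrps28 overlaps Gm15466, Gm52600 and Gm52601, so the same limit holds for its reads. Its log2 fold change of 0.53 (SE 0.23) lay just inside the threshold at an unadjusted p of 0.0486 in limma. Mrps36, the component of oxoglutarate dehydrogenase, showed the largest rise of the 76 genes. It had 8.81 and 15.4 RPKM in WT HSPCs against 27.5 and 21.7 RPKM in JMJD1B-/- HSPCs, which gives a log2 fold change of 1.06 (SE 0.30, 95% confidence interval 0.36 to 1.76, adjusted p = 0.335 in limma). The WT libraries differed widely, yet both lay below both JMJD1B-/- libraries. Without Mrps36, which is no ribosomal subunit, 10 of 75 genes were higher at an unadjusted p under 0.05, beside 3.81% of all genes tested.

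The support of these 11 genes depended on single libraries. All 11 log2 fold changes stayed above 0 with any library left out. With WT replicate 1 or WT replicate 2 left out, 3 and 4 of the 11 stayed past the unadjusted threshold. With JMJD1B-/- replicate 1 or JMJD1B-/- replicate 2 left out, 10 and 8 did. In the gene-by-gene test, 5 of the 11 passed.

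The stalk of the large subunit, which recruits the factors that drive translation, is formed by the proteins of Mrpl10 and Mrpl12 on a base that contains the protein of Mrpl11. Mrpl12 was the most abundant of them, with 36.3 and 38.4 RPKM in WT HSPCs against 42.3 and 69.9 RPKM in JMJD1B-/- HSPCs. Its log2 fold change of 0.54 (SE 0.25) missed the threshold at an unadjusted p of 0.0691 in limma. Mrpl10 had 10.3 and 9.52 RPKM in WT HSPCs against 9.63 and 13.0 RPKM in JMJD1B-/- HSPCs. Mrpl11 had 5.79 and 5.26 RPKM in WT HSPCs against 4.37 and 8.28 RPKM in JMJD1B-/- HSPCs. For Mrpl10 and Mrpl11, JMJD1B-/- replicate 2 was above both WT libraries and JMJD1B-/- replicate 1 was not, and neither gene passed the test. The protein of Mrpl12 is present in several copies per ribosome.

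The 3 Mrps18 genes encode related proteins that occupy different places. The protein of Mrps18c is the counterpart of the bacterial protein, that of Mrps18b sits elsewhere in the small subunit, and that of Mrps18a lies in the large subunit. Mrps18b had 22.0 and 24.4 RPKM in WT HSPCs against 26.5 and 38.6 RPKM in JMJD1B-/- HSPCs. Mrps18a had 16.9 and 16.0 RPKM in WT HSPCs against 15.3 and 22.9 RPKM in JMJD1B-/- HSPCs. Mrps18c had 17.2 and 19.3 RPKM in WT HSPCs against 14.0 and 24.4 RPKM in JMJD1B-/- HSPCs. The genotypes were separated for Mrps18b alone, and its log2 fold change of 0.46 (SE 0.23) missed the threshold at an unadjusted p of 0.0832 in limma. All 3 had similar WT levels, and JMJD1B-/- replicate 2 was the highest library for each.

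Among genes with particular roles, Mrps12, for a protein at the decoding center, differed most between the WT libraries. It had 16.3 and 7.55 RPKM in them, and 10.01 and 11.1 RPKM in the JMJD1B-/- libraries, which lay between. Mrpl44, whose protein has the fold of a ribonuclease, had 12.2 and 8.75 RPKM in WT HSPCs against 11.1 and 13.9 RPKM in JMJD1B-/- HSPCs. Mrps30, the former small-subunit name of a large-subunit protein, had 15.5 and 20.0 RPKM in WT HSPCs against 19.1 and 22.8 RPKM in JMJD1B-/- HSPCs. The genotypes overlapped for all 3 genes, and none passed the test.

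No gene of the 76 was lower at an unadjusted p under 0.05 in limma with all libraries and without quantile normalization. Mrpl24 was lower with quantile normalization, and Mrpl9, Mrpl24, Mrpl27, Mrpl34, Mrpl39, Mrpl45 and Mrpl54 were lower without JMJD1B-/- replicate 2. The most negative log2 fold change, −0.41 (SE 0.48), belonged to Mrpl45, for a protein near the tunnel exit that holds the ribosome to the inner membrane. Mrpl45 had 9.32 and 9.96 RPKM in WT HSPCs against 4.13 and 12.7 RPKM in JMJD1B-/- HSPCs, so that its sign rested on JMJD1B-/- replicate 1. Without that library its log2 fold change was 0.39, and without JMJD1B-/- replicate 2 it was −1.20. Mrpl24, for a protein at the same exit, had 54.1 and 58.3 RPKM in WT HSPCs against 35.9 and 51.5 RPKM in JMJD1B-/- HSPCs. Mrpl33 had 65.0 and 53.8 RPKM in WT HSPCs against 46.8 and 53.5 RPKM in JMJD1B-/- HSPCs. These were the only 2 genes with both JMJD1B-/- libraries below both WT libraries, with log2 fold changes of −0.38 and −0.24. Their intervals, −0.89 to 0.12 and −0.68 to 0.20, include 0. Both are among the 6 most abundant of the 76. In RefSeq, Mrpl24 overlaps Rrnad1 and Mrpl33 overlaps Gm38424. Mrpl39 and Mrpl36 completed the 5 lowest values, with log2 fold changes of −0.23 and −0.22, and their genotypes overlapped.

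The JMJD1B-/- libraries disagreed most on Mrpl34, with 11.4 RPKM in replicate 1 and 38.7 RPKM in replicate 2, against 18.2 and 16.5 RPKM in the WT libraries. The difference between the JMJD1B-/- libraries was 1.75 on the log2 scale. It was 1.59 for Mrpl45, 1.16 for Mrpl54 and 1.10 for Mrpl9. Mrpl54 had 23.7 and 27.4 RPKM in WT HSPCs against 16.7 and 37.2 RPKM in JMJD1B-/- HSPCs. Mrpl9 had 25.4 and 22.5 RPKM in WT HSPCs against 16.2 and 34.8 RPKM in JMJD1B-/- HSPCs. In each of the 4 genes, JMJD1B-/- replicate 1 was the lowest library and JMJD1B-/- replicate 2 the highest. Their mean fold changes describe neither library. That of Mrpl9, −0.01, turned to 0.00048 with median-ratio scaling.

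Subunits with other names were taken from a list of 9 symbols, of which 7 were listed and tested. The log2 fold change was above 0 for 6 of the 7, with a median of 0.23, and 1 was higher at an unadjusted p under 0.05 in limma. Over all genes tested, 47.0% were above 0 and 3.81% were higher. Ict1, now also called Mrpl58, encodes a large-subunit protein with peptidyl-tRNA hydrolase activity. It had 14.0 and 15.6 RPKM in WT HSPCs against 23.2 and 19.0 RPKM in JMJD1B-/- HSPCs, and it was the only gene of the list past the unadjusted threshold (log2 fold change 0.50, SE 0.21, adjusted p = 0.488 in limma). Mrp63, now called Mrpl57, had 8.50 and 7.67 RPKM in WT HSPCs against 8.53 and 12.8 RPKM in JMJD1B-/- HSPCs. Chchd1 had 35.7 and 35.1 RPKM in WT HSPCs against 16.2 and 46.1 RPKM in JMJD1B-/- HSPCs, which repeats the split between the JMJD1B-/- libraries. Ptcd3, Dap3, Aurkaip1 and Gadd45gip1 had log2 fold changes of 0.20, 0.09, 0.23 and 0.44.

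Genes that work with the mitochondrial ribosome were read beside the shares over all genes tested, 3.81% higher and 6.33% lower. The lists are small, and their difference from the 76 genes was not tested. Of 15 translation factors tested, 0 were higher and 0 were lower at an unadjusted p under 0.05 in limma, and the median log2 fold change was 0.12. The largest changes in this list were those of Gfm2, a factor of ribosome recycling, Mrrf, the recycling factor itself, and Taco1, an activator of Cox1 translation, with 0.47, 0.39 and 0.37. Of 24 genes of ribosome assembly and rRNA modification, 2 were higher and 0 were lower, with a median of 0.19. Noa1, for a GTPase of assembly, had 11.8 and 14.5 RPKM in WT HSPCs against 17.5 and 22.0 RPKM in JMJD1B-/- HSPCs. Fastkd2, for an RNA-binding protein of large-subunit assembly, had 13.4 and 11.9 RPKM in WT HSPCs against 20.3 and 17.2 RPKM in JMJD1B-/- HSPCs. Both genes were separated between the genotypes, with log2 fold changes of 0.59 and 0.56 and adjusted p-values of 0.469 and 0.449 in limma.

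Of 20 genes for mitochondrial aminoacyl-tRNA synthesis, 1 was higher and 0 were lower, with a median of 0.17. This gene, Gatc, for a subunit of the amidotransferase that makes glutaminyl-tRNA, had 4.67 and 4.94 RPKM in WT HSPCs against 7.27 and 9.73 RPKM in JMJD1B-/- HSPCs. Lars2, named after its values were seen, had by far the highest level of this list and was uneven in the WT libraries, with 454 and 116 RPKM against 280 and 261 RPKM in the JMJD1B-/- libraries. Of 17 genes for replication and transcription of mitochondrial DNA and for the nuclear regulators of mitochondrial genes, 0 were higher and 1 was lower, with a median of 0.12. The lower gene was Gabpb1, for a subunit of the ETS factor GABP, with 20.9 and 20.8 RPKM in WT HSPCs against 11.0 and 16.0 RPKM in JMJD1B-/- HSPCs (log2 fold change −0.65, SE 0.24, adjusted p = 0.438 in limma). Gabpa, for the DNA-binding subunit of GABP and also named after its values were seen, had 21.9 and 24.96 RPKM in WT HSPCs against 23.9 RPKM in both JMJD1B-/- libraries. Transcripts of the mitochondrial genome were not analysed here.

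Cytosolic ribosomal proteins and nuclear genes of oxidative phosphorylation also had medians above 0 and a higher median in JMJD1B-/- replicate 2 than in replicate 1, and their difference from the 76 genes was not tested. For 80 cytosolic ribosomal protein genes the median log2 fold change was 0.29, 78 were above 0, 11 were higher at an unadjusted p under 0.05 and 0 were lower. For 76 oxidative phosphorylation genes the median was 0.27, 63 were above 0, 15 were higher and 1 was lower. Against the WT mean, the medians were 0.11 and 0.50 in JMJD1B-/- replicates 1 and 2 for cytosolic ribosomal proteins and 0.08 and 0.44 for oxidative phosphorylation. The WT level differed, with a median of 315 RPKM for cytosolic ribosomal proteins and 38.4 RPKM for oxidative phosphorylation against 14.0 RPKM for the 76 mitochondrial ribosomal genes. Genes within the range of mean RPKM of the 76, which were 8274, had a median of −0.0014 on this scale, and 4.17% of them were higher at an unadjusted p under 0.05.

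**Figure D2:**
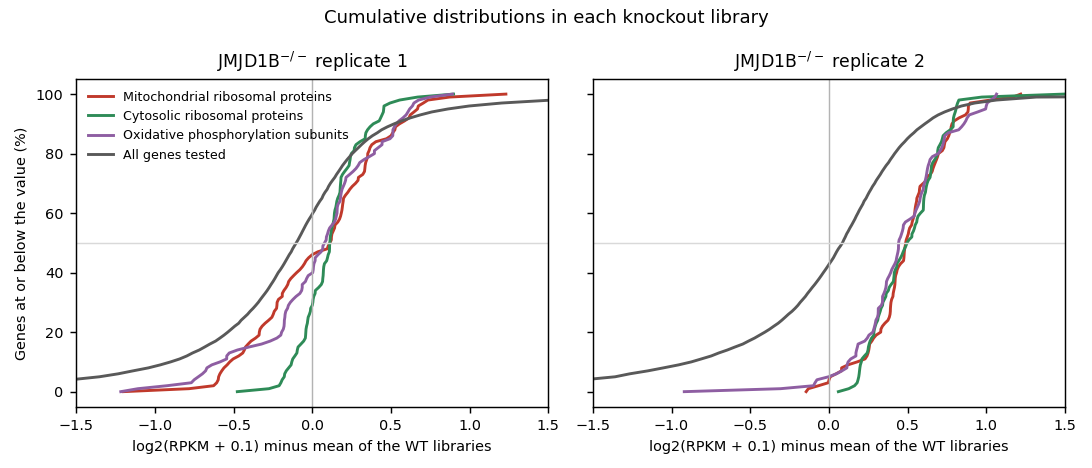
Cumulative distributions over genes of log2(RPKM + 0.1) in JMJD1B-/- replicate 1 and in JMJD1B-/- replicate 2 minus the mean of the WT libraries, for 76 mitochondrial ribosomal, 80 cytosolic ribosomal, 76 oxidative phosphorylation and all 11863 tested genes, with the horizontal axis limited to changes of 1.5 in size. The 3 lists have medians between 0.08 and 0.11 in replicate 1 and between 0.44 and 0.50 in replicate 2, and all genes have −0.10 and 0.09.

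Marker genes of blood cells also differed between the libraries. The summed level of 7 erythroid markers was 149 and 216 RPKM in WT HSPCs against 437 and 990 RPKM in JMJD1B-/- HSPCs, and 6 of the 7 were higher at an unadjusted p under 0.05. The most abundant was Hbb-b1, with 51.6 and 85.2 RPKM in WT HSPCs against 157 and 437 RPKM in JMJD1B-/- HSPCs. As for the mitochondrial ribosomal genes, JMJD1B-/- replicate 2 was the highest library. The sum of 10 HSPC markers was 297 and 266 RPKM in WT HSPCs against 164 and 219 RPKM in JMJD1B-/- HSPCs, with 5 lower and 0 higher. Kit was the most abundant of them by the mean of all 4 libraries. It had 66.9 and 62.5 RPKM in WT HSPCs against 51.6 and 92.7 RPKM in JMJD1B-/- HSPCs. In WT replicate 1, Gata2 was higher than Kit, with 73.3 RPKM. No HSPC marker was at 0. The 8 granulocyte markers, led by Mpo, summed to 266 and 181 RPKM in WT HSPCs against 77.6 and 51.4 RPKM in JMJD1B-/- HSPCs, and Camp was at 0 in WT replicate 2 and in JMJD1B-/- replicate 1. Of the 6 that were tested, 4 were lower and 2, S100a8 and S100a9, were higher at an unadjusted p under 0.05. S100a8 had 7.24 and 4.74 RPKM in WT HSPCs against 8.71 and 10.6 RPKM in JMJD1B-/- HSPCs, and S100a9 had 2.79 and 1.41 RPKM against 8.01 and 10.8 RPKM.

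The 5 basophil and mast cell markers, led by Prss34 in the mean of the libraries, summed to 457 and 533 RPKM in WT HSPCs. In JMJD1B-/- HSPCs the sums were 96.5 and 41.7 RPKM, and all 5 were lower at an unadjusted p under 0.05. In JMJD1B-/- replicate 1, Mcpt8 (41.0 RPKM) was above Prss34 (30.6 RPKM). The 5 megakaryocyte markers, led by Pf4, summed to 589 and 518 RPKM in WT HSPCs against 213 and 333 RPKM in JMJD1B-/- HSPCs, with 4 lower. The 6 proliferation markers, led by Mki67, summed to 624 and 721 RPKM in WT HSPCs against 815 and 788 RPKM in JMJD1B-/- HSPCs, with 1 of them higher and 0 lower. In each library, the marker lists that follow had lower sums than the lists above. The 4 monocyte and macrophage markers analysed (Emr1, now called Adgre1, is among them, and Mrc1 was not analysed here), led by Ly6c2, summed to 50.6 and 29.8 RPKM in WT HSPCs against 35.0 and 14.2 RPKM in JMJD1B-/- HSPCs, with 2 lower and 0 higher. The 6 T and NK cell markers, led by Nkg7 in the mean of the libraries, summed to 20.1 and 22.96 RPKM in WT HSPCs. In JMJD1B-/- HSPCs the sums were 40.1 and 12.5 RPKM. In JMJD1B-/- replicate 1, Cd3g (11.7 RPKM) and Cd3e (7.98 RPKM) were above Nkg7 (7.19 RPKM). Of these 6, Nkg7 was lower and Cd3e and Cd3g were higher at an unadjusted p under 0.05, and Cd3g had 0.444 and 0.474 RPKM in WT HSPCs against 11.7 and 1.66 RPKM in JMJD1B-/- HSPCs. The 5 markers of stroma and endothelium analysed of 6 (Cdh5 was not analysed here), led by Pecam1, summed to 38.2 and 67.4 RPKM in WT HSPCs against 24.0 and 9.97 RPKM in JMJD1B-/- HSPCs, with 2 lower and 0 higher. The part of the cell types in the rise of the mitochondrial ribosomal genes was not tested.

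Promoter windows of 300 bases, from 250 before to 50 after the start of the gene, were taken from RefSeq (build GRCm38.p6). The reason was that the log2 fold change was above 0 for 63 of the 76 genes, although 0 passed after adjustment in limma. Against the WT mean, 73 of the 76 were higher in JMJD1B-/- replicate 2, but only 41 were in JMJD1B-/- replicate 1. Of the 76 genes, 67 had a window, with 73 windows in all. Mrpl4, Mrpl13, Mrpl15, Mrpl19, Mrpl38, Mrpl54, Mrps28, Mrps34 and Mrps35 had none. Motifs linked to nuclear control of mitochondrial genes were searched on both strands, and overlapping matches were all counted. Shares are given beside those of the 32851 windows of the whole table and of the 11926 windows of genes tested here, which cover 9423 of the 11863 genes tested. This is under the coverage of 80% set for such a check, so the comparison with genes tested is void as a check and its values only describe the genes covered. The windows of the whole table include genes that were not tested here. The letters CCGGAAG of ETS factors such as GABP were found in 32.9% of the 73 windows, against 8.86% of all windows and 18.1% of those of genes tested. AANATGGC, of YY1, was found in 27.4% against 6.05% and 8.71%. These letters hold ATG, as a start codon does, and matches at start codons were not told apart from others. GCGCATGC, of NRF1, was found in 11.0% against 2.71% and 5.26%. GGGCGG, the box of SP and KLF factors, was found in 52.1%, above the 35.7% of all windows and below the 61.5% of genes tested. The E-box CACGTG was found in 9.59%, against 7.15% and 10.05%. These 7 windows belong to 5 genes, because overlapping windows of Mrpl2 repeat a match. By gene, the E-box was found for 5 of 67, against 2187 of 27025 in the whole table. That is below the share of the whole table and not above it. The median number of CG dinucleotides per window was 21, against 7 in all windows and 20 in those of genes tested. The median GC content was 58.3%, against 52.7% and 60.3%.

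Of 23 matches to the YY1 letters, 15 began after the start of the gene. The ETS and YY1 letters occurred together in 7 windows. With the ETS letters (24 genes) the median log2 fold change was 0.24, and without them (43 genes) it was 0.31. With the YY1 letters (20 genes) it was 0.21, and without them (47 genes) 0.31. For NRF1 it was 0.25 with the letters (8 genes) and 0.28 without, for the E-box 0.10 with (5 genes) and 0.29 without, and for the GC box 0.33 with (33 genes) and 0.26 without. These differences were not tested. A match describes the sequence and not the binding of a factor, and binding was not analysed here.

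Windows are shown for 4 genes past the unadjusted threshold and for Mrpl24, which was among the lowest, all on the strand of the gene and with the matched letters in capitals. Mrpl49 (chr19:6057706-6058005, minus strand) holds the YY1 letters after its start and the GC box at 2 places. Mrpl51 (chr6:125191950-125192249, plus strand) holds the ETS, GC box and YY1 letters in this order. Mrpl22 (chr11:58171414-58171713, plus strand) holds the ETS letters followed by those of NRF1. Mrpl30 (chr1:37890227-37890526, plus strand), with the lowest p, holds none of the 5 motifs. Mrpl24 (chr3:87919294-87919593, plus strand) holds the YY1 letters in reverse, far before its start.
Mrpl49: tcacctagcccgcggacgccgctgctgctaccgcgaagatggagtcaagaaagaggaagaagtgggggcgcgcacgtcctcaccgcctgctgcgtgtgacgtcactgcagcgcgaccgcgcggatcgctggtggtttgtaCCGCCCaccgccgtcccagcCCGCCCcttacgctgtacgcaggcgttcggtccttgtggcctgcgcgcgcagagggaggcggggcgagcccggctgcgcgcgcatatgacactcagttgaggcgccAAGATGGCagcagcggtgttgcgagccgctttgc
Mrpl51: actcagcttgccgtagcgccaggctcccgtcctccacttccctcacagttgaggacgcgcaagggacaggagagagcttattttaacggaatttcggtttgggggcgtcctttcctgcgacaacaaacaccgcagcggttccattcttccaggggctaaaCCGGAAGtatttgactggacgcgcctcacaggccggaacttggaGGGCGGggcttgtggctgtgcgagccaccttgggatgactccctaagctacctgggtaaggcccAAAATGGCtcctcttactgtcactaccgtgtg
Mrpl22: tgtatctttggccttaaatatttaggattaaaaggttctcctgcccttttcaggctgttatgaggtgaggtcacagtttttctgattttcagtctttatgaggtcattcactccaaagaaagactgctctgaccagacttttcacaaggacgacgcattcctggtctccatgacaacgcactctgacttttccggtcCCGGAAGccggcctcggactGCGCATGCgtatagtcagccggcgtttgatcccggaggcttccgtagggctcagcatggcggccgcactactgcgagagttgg
Mrpl30: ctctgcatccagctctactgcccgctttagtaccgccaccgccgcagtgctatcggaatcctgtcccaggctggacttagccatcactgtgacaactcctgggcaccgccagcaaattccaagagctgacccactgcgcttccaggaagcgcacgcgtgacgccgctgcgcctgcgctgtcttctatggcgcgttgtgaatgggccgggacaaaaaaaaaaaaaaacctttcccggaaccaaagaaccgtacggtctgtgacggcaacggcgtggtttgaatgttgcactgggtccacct
Mrpl24: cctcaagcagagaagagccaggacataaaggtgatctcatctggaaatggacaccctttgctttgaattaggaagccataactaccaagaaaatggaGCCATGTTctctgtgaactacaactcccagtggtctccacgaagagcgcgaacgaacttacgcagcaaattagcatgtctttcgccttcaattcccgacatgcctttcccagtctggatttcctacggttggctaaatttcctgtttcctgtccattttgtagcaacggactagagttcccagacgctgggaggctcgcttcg

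A window shared with a gene on the opposite strand was found for 23 of 67 genes (34.3%), against 11.9% of the 27025 genes of the whole promoter table and 19.3% of the 9423 genes tested that had a window, a comparison that is void as a check for the same lack of coverage. The partner was tested for 22 of the 23. Leaving out the pair in which both partners belong to the 76, the median log2 fold change of the 20 tested partners was 0.13, 12 were above 0, 1 was higher at an unadjusted p under 0.05 and 0 were lower. Over all genes tested 47.0% were above 0, 3.81% were higher and 6.33% were lower. The higher partner was Fau, which encodes a cytosolic small-subunit protein and shares 291 bases of its window with Mrpl49. Fau had 141 and 127 RPKM in WT HSPCs against 180 and 219 RPKM in JMJD1B-/- HSPCs, which gives a log2 fold change of 0.57 (SE 0.19, adjusted p = 0.403 in limma) beside the 0.70 of Mrpl49. Both genes of this pair were thus higher in both JMJD1B-/- libraries than in both WT libraries. Mitd1, the partner of Mrpl30, had 14.2 and 13.6 RPKM in WT HSPCs against 9.26 and 17.0 RPKM in JMJD1B-/- HSPCs, so that JMJD1B-/- replicate 1 was the lowest library and JMJD1B-/- replicate 2 the highest. Partners were named after their values were seen.

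Mrpl46 and Mrps11, of the large and the small subunit, share 141 bases and start 42 bases apart, so their windows are shown as the pair within the 76. Mrpl46 (chr7:78783040-78783339, minus strand) had 8.97 and 11.8 RPKM in WT HSPCs against 12.9 and 12.04 RPKM in JMJD1B-/- HSPCs. Mrps11 (chr7:78782881-78783180, plus strand) had 5.80 and 7.28 RPKM in WT HSPCs against 7.46 and 11.1 RPKM in JMJD1B-/- HSPCs. The genotypes did not overlap for either gene, with a narrow margin, and neither passed the test, with log2 fold changes of 0.28 (SE 0.24) and 0.48 (SE 0.29). The GC box that both windows hold is the same stretch read from either strand, and the YY1 letters, in reverse, lie in the window of Mrps11 alone.
Mrpl46: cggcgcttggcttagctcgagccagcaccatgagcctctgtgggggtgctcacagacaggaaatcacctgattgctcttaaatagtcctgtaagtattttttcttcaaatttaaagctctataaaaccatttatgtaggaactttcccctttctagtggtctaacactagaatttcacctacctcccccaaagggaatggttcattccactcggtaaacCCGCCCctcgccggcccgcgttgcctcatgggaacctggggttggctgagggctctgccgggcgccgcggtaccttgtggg
Mrps11: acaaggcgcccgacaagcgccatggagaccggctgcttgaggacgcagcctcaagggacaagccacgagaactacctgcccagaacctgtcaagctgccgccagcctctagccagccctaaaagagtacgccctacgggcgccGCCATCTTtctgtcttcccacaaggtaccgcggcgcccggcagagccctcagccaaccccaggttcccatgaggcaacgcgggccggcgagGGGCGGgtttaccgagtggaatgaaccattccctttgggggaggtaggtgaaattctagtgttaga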

How the data were processed

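RNA-seq of HSPCs was analysed from 2 WT and 2 JMJD1B-/- libraries, and ChIP-seq data of the series were not used here. The authors deposited a table of RPKM values to which they had added 1, and RPKM was computed as the value minus 1. The submitters' processing notes name Novoalign, TopHat2 and mm9, and the labels name polyA RNA and a TruSeq kit, which does not mark strand. Every gene of the table exceeds an RPKM of 1 in some library. It has 12024 entries, and entries that share a name (42 names, 0 of them among the 76) were averaged. The depth was estimated from whole-number ratios among genes under 3 RPKM and from the RefSeq lengths of 18 genes that gave the same depth within 0.4%, the next depth being given by 5.

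The test, limma 3.58.1 under R 4.3.3, took log2(RPKM + 0.1) of every gene whose mean RPKM reached 0.5 (a trend of variance on mean, two-sided, Benjamini-Hochberg adjustment over 11863 genes). It was also run on simulated data. There, 79% of the genes with a true log2 change of 1 in size passed 0.05 before adjustment and 27% after it. The simulation gave all libraries the same spread beyond counting error, so it does not cover the difference between the JMJD1B-/- libraries. Fold changes on this scale understate changes of low genes. Python 3.11.15 with matplotlib 3.10.9, numpy 2.4.6 and pandas 2.3.3 gave the tables and figures. Named were Kdm3b, genes of the 76 with an unadjusted p under 0.05, the 5 largest rises and 5 largest falls, the 6 highest and 4 lowest levels, the 4 largest differences between the JMJD1B-/- libraries, and genes named for their roles. Subunits under other names were named too, as were genes of the 4 lists of factors with an unadjusted p under 0.05, or the 3 with the largest change. Alternatives were no filter, pseudocounts of 1 and of 0.01, a filter at a mean RPKM of 1, quantile normalization, median-ratio scaling, limma without a trend, an equal-variance test run gene by gene, a replicate block, each duplicated entry kept, and each library left out. The genes, lists and roles were chosen with earlier results of these data known. A list of cell type markers is not reported here. Gene names, gene overlaps and promoter sequences came from RefSeq tables of GRCm38.p6, in which all 76 symbols were found.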

Additional observations from a re-analysis of the deposited data

How the results depend on the processing

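The count of the 76 genes that were higher at an unadjusted p under 0.05 was 11, and between 8 and 15 under the 10 alternatives that kept all libraries, where between 2.92% and 5.61% of all genes were higher. The count of those lower was 0, and 1 with quantile normalization. With single libraries left out, where a lone library is assumed to vary like the pair, the counts were 3 to 34 higher and 0 to 7 lower. Over all genes they were 123 to 1258 higher, against 452, and 177 to 1819 lower, against 751. The median log2 fold change of the 76 stayed between 0.11 and 0.49, and that of Kdm3b between −2.82 and −2.42 over all alternatives. Fewer libraries leave fewer degrees of freedom, and the cause of the other differences was not tested.

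With a replicate block, 14 of the 76 were higher and 0 lower, 571 and 914 genes were higher and lower over all, the median stayed at 0.27 and Kdm3b at −2.65. Adjusted p-values of 2 of the 76 then passed 0.05 in limma (lowest 0.0245), beside 256 of 11863 genes. They passed for 5 of the 76 without JMJD1B-/- replicate 1, beside 630 genes, and for 2 without JMJD1B-/- replicate 2, beside 669 genes. Same-numbered libraries did not deviate together (correlation −0.054). The labels give them only a number in common, and other links between them were not tested.

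Of 728 values of 52 named genes under alternatives, 612 kept sign and side of the unadjusted threshold, 61 lost it, 31 gained it and 24 turned sign. In addition to Mrpl9 (0.00048 with median-ratio scaling) and Mrps25 (0.093 with quantile normalization), signs turned only with a library left out. Log2 fold changes then ranged from −1.12 to 0.38 for Chchd1, −0.32 to 0.50 for Dap3, −0.75 to 1.22 for Lars2, −0.039 to 0.39 for Mrpl10, −0.33 to 0.58 for Mrpl11, −0.020 to 0.29 for Mrpl18, −0.60 to 1.15 for Mrpl34, −0.59 to 0.13 for Mrpl39, −1.20 to 0.39 for Mrpl45, −0.053 to 0.56 for Mrpl52, −0.61 to 0.55 for Mrpl54, −0.56 to 0.54 for Mrpl9, −0.62 to 0.48 for Mrps12, −0.10 to 0.48 for Mrps18a, −0.38 to 0.42 for Mrps18c, −0.47 to 0.44 for Mrps25 and −0.035 to 0.43 for Ptcd3. The cause was not tested. Depth limits the low genes most in JMJD1B-/- replicate 1, where a 1 kb transcript at the level of Mrps25 has about 23.3 reads and a counting error of 20.7%.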
